A study of Mus musculus with 6 samples.

Results

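The mammalian chitinase and chitinase-like proteins belong to glycoside hydrolase family 18, and the mouse genes Chia1, Chit1, Chil1, Chil3 and Chil4 were followed here across the lungs of wild-type (WT) mice given either PM or the PBS vehicle. Members were matched by symbol, from a list drawn up with earlier results of these data known, and are 5 of the 23238 distinct symbols in the count tables, and 4 of the 14057 genes with enough reads to test. The series title describes the PM exposure as chronic. Every sample is lung of genotype WT, and the only labelled difference is the agent, PM or PBS, each marked i.t., with no dose, duration, strain, sex or age given. For each agent 3 tables were deposited, but the table of PBS replicate 2 held the same values as that of PBS replicate 1 and was counted with it as 1 library, which left 2 PBS libraries (replicates 1 and 3) and 3 PM libraries. The 5 libraries held 7410200 to 8827202 counted reads each. Nothing in the labels says that samples of a group came from separate animals, so each p-value speaks for the spread among these libraries, which may be technical.

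Chitin, a polymer of N-acetylglucosamine, is made by fungi, insects, mites and many parasites but not by mammals, and acidic mammalian chitinase (Chia1) and chitotriosidase (Chit1) cut it. The chitinase-like proteins keep the barrel fold of these enzymes and can bind sugars, but they lack the catalytic glutamate and do not cut chitin. Chil1, also called Brp39, is made by macrophages and epithelial cells, while Chil3 and Chil4, the genes of Ym1 and Ym2, are much used as markers of alternatively activated macrophages and of the mouse airway in type 2 inflammation.

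The division between enzymes and enzyme-like proteins can be read in the coding sequence. The 5 stretches printed next are the same 30 coding bases of each gene (GENCODE M21 transcripts on GRCm38), ending 2 codons after the end of the family's DxxDxDxE signature or its counterpart, with the codon at the catalytic position in capitals. Each lies within a single exon, the fifth of the transcript for 4 genes and exon 6 for Chit1.
Chia1 (chr3:106122448-106122477, plus strand): gatggactggacctggactggGAAtaccca
Chit1 (chr1:134145334-134145363, plus strand): gatggccttgaccttgactggGAGttccca
Chil1 (chr1:134185231-134185260, plus strand): gatgggctggatctcgcctggCTCtaccct
Chil3 (chr3:106160422-106160451, minus strand): gatggcctcaacctggactggCAGtaccct
Chil4 (chr3:106210527-106210556, minus strand): gatggcctcaacctggactggCAGtaccct
Chia1 and Chit1 carry GAA and GAG, both codons of glutamate, at that position. Chil1 carries CTC, a leucine codon, and Chil3 and Chil4 carry CAG, a glutamine codon. The Chil3 and Chil4 stretches are identical over all 30 bases.

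Chia1, the acidic chitinase, rose in the PM lungs, and it was the only member whose increase passed the test over all genes. Its level, as read counts scaled to library size (CPM, TMM-scaled), was 105 and 79.0 in the PBS libraries and 263, 351 and 266 in the PM libraries. All 3 PM values lay above both PBS values, and the lowest PM value was 2.50 times the highest PBS value, while the highest and lowest values within each group differed by a factor of 1.33. The means were 92.0 ± 18.4 CPM for PBS (SD, n = 2) and 293 ± 49.7 CPM for PM (SD, n = 3). The fitted log2 difference was 1.67 ± 0.17 (SE), a 3.18-fold increase, with a p of 0.00645 by the edgeR quasi-likelihood fit after Benjamini-Hochberg adjustment across the 14057 genes. By that test 0.142% of the genes were called higher in PM and 0.0854% lower, and Chia1 had the third-lowest adjusted p. The fold held without either PBS library but the call did not: without PBS replicate 1 the log2 difference was 1.89 with an edgeR adjusted p of 0.0591, and without PBS replicate 3 it was 1.48 with 0.0741. In these fits the lone PBS library is assumed to vary like the PM libraries. In bulk lung RNA, more cells of a type and more RNA per cell cannot be told apart, here or for any gene below.

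Chit1, the other active chitinase and in humans a product of lipid-laden macrophages, was almost undetected. It had 12 counts in PBS replicate 1, 8 in PM replicate 1 and 0 in the other 3 libraries, or 1.39 and 0.935 CPM in the libraries with counts. A count of 0 allows up to 0.370 CPM in PBS replicate 3, 0.430 in PM replicate 2 and 0.378 in PM replicate 3, taking 3 counts as the limit and covering counting error only. Neither group stood above the other. Chit1 fell below the minimum for testing, and in a fit without that minimum its log2 difference was -1.07 ± 1.53 (SE) with an edgeR adjusted p of 0.826, so no difference was detectable at this depth.

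**Figure D1:**
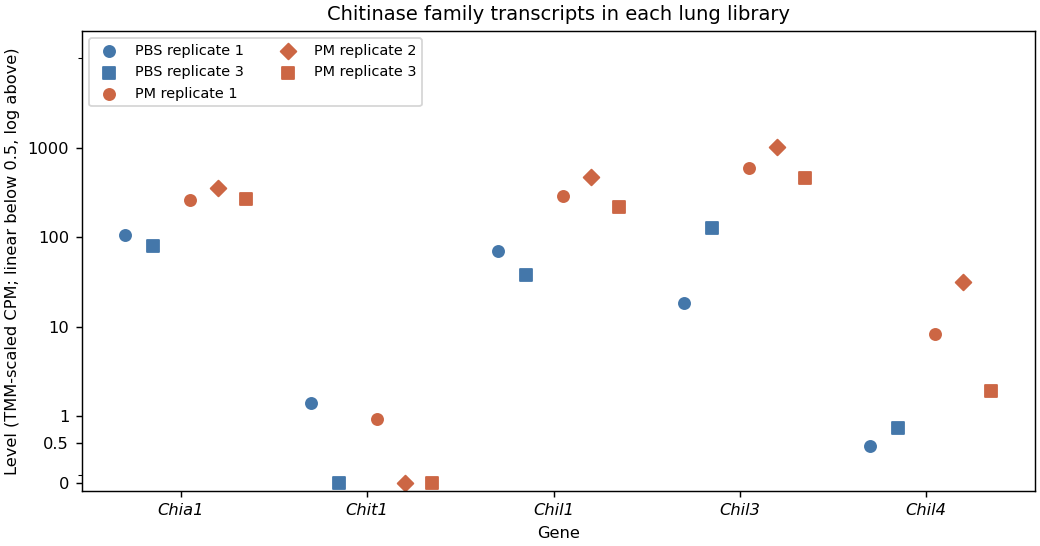
Level of each member (TMM-scaled CPM, on an axis that is linear below 0.5 and logarithmic above) in the 2 distinct PBS libraries (blue) and the 3 PM libraries (orange), 1 point per library. The 3 PM points lie above both PBS points for Chia1, Chil1, Chil3 and Chil4, with tight groups for Chia1, PBS points far apart for Chil3 (18.2 and 127 CPM) and PM points far apart for Chil4 (1.89 to 31.8 CPM).

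Among the chitinase-like genes, Chil1, Chil3 and Chil4 had higher levels in every PM library than in either PBS library, and none of the 3 passed the test. Over all genes tested, 15.5% had every PM library above every PBS library and 16.1% every PM library below, so separation of the groups alone is common here. Chil1 stood at 70.0 and 38.03 CPM in PBS and at 291, 471 and 218 CPM in PM. The lowest PM value lay well above the highest PBS value, though values within both groups spread more widely than for Chia1. The means were 54.0 ± 22.6 CPM (SD, n = 2) and 327 ± 130 CPM (SD, n = 3). The fitted log2 difference was 2.59 ± 0.53 (SE), 6.04-fold, with an unadjusted p of 0.00892 and an adjusted p of 0.188 by edgeR's quasi-likelihood test. For reference, 7.26% of all genes had an unadjusted p below 0.05 with a higher level in PM and 6.05% with a lower one.

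Chil3, the gene of Ym1, was the most abundant member in PM lungs and, of the 4 tested members, the most uneven in PBS lungs. It stood at 18.2 CPM in PBS replicate 1 and 127 CPM in PBS replicate 3, and at 591, 1014 and 453 CPM in PM. The PBS libraries differed from each other by a factor of 6.98, but both lay below all PM libraries. The means were 72.6 ± 76.9 CPM (SD, n = 2) and 686 ± 292 CPM (SD, n = 3). The fitted log2 difference was 3.24 ± 1.15 (SE), 9.46-fold, with an edgeR adjusted p of 0.40. Its size depends on which PBS library is used: the log2 difference was 2.43 without PBS replicate 1 and 5.23 without PBS replicate 3. The same PBS libraries also differed in Ear2, an eosinophil-associated ribonuclease abundant in alveolar macrophages, at 25.3 CPM in replicate 1 and 90.5 CPM in replicate 3. Ear2 is only 1 of 13 alveolar macrophage markers read below, which summed to 388 CPM in replicate 1 and 618 CPM in replicate 3. Of these, Fabp4 went the other way, at 12.7 and 9.14 CPM. The part of alveolar macrophage RNA in the Chil3 difference was not tested.

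Chil4, the gene of Ym2, was near the detection limit in PBS and varied most among PM libraries. The counts were 4 and 6 in PBS and 70, 222 and 15 in PM, or 0.464 and 0.741 CPM against 8.18, 31.8 and 1.89 CPM. PM replicate 2 was highest and PM replicate 3 lowest, a factor of 16.8 apart, and the groups did not overlap. The gene passed the minimum for testing only through its PM reads, so its separation is no independent support for the others. The fitted log2 difference was 4.49 ± 1.79 (SE) with an edgeR adjusted p of 0.428, and leaving out PM replicate 2 gave 3.05 and leaving out PM replicate 3 gave 5.02.

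The tools differed on the chitinase-like genes. DESeq2 gave adjusted p-values of 2.65e-17 for Chia1, 0.000213 for Chil1, 0.0465 for Chil3 and 0.0417 for Chil4, and it called 1.83% of its genes higher in PM and 0.783% lower. The limma-voom fit called 0.0854% of genes higher and 0.0783% lower, and of the members it called Chia1. By size of fold alone, counting from the largest increase among the 14057 genes, Chil4 ranked 29, Chil3 53, Chil1 87 and Chia1 241, the reverse of their order by edgeR adjusted p.

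**Figure D2:**
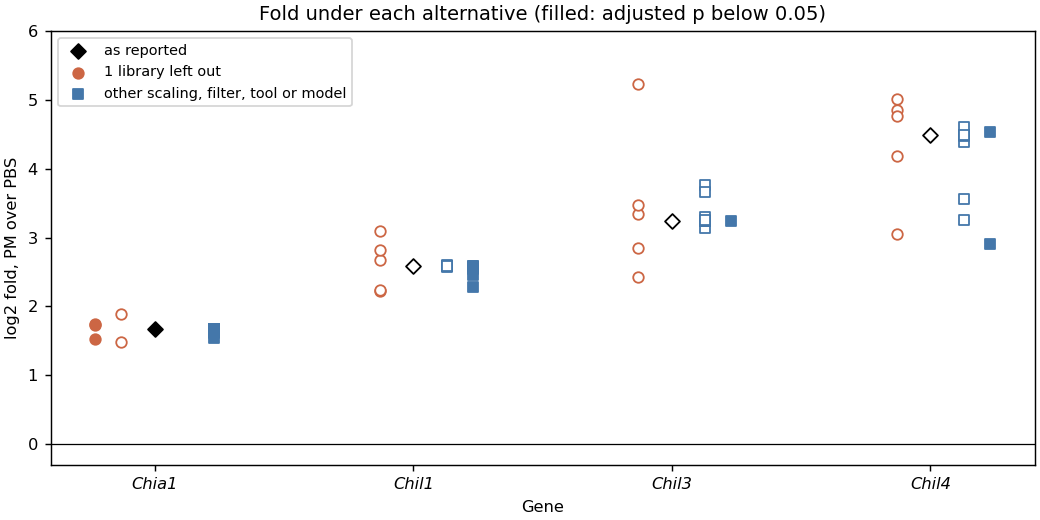
Log2 difference between PM and PBS lungs (vertical axis) for the 4 tested members, as reported (diamonds), with 1 library left out (circles) and with another scaling, filter, tool or model (squares), filled where the adjusted p was below 0.05 and open where it was not. Every point lies above 0, from 1.48 to 1.89 for Chia1, 2.22 to 3.10 for Chil1, 2.43 to 5.23 for Chil3 and 2.90 to 5.02 for Chil4, and most points are filled for Chia1 alone.

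Compared per length, as CPM per kilobase of the longest protein-coding transcript, Chil3 stood first in every library but PBS replicate 1, where Chia1 did. In PBS lungs Chia1 stood at 62.5 and 47.0 CPM per kilobase and Chil1 at 38.1 and 20.7, and the Chil3 values of 11.8 and 82.5 lay on both sides of them. In PM lungs Chil3 stood at 384, 659 and 294 CPM per kilobase, above every value of Chil1 (158, 256 and 119) and Chia1 (156, 209 and 158), which overlapped each other. Chil4 at 5.32, 20.7 and 1.23 CPM per kilobase lay far below them, and Chit1 came last. Ranked among 12992 tested genes with a transcript length, Chil3 was at 4342 and 612 in the PBS libraries and at 89, 41 and 124 in the PM libraries. Chia1 moved from ranks 868 and 1156 to 278, 196 and 272, and Chil1 from 1470 and 2719 to 271, 148 and 396. Chil4 was at 12608 and 12228 in PBS and at 7237, 2730 and 11138 in PM.

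The 5 members together summed to 195 and 245 CPM in the PBS libraries and to 1154, 1866 and 939 CPM in the PM libraries. Chil3 made up 51.2%, 54.3% and 48.2% of the members' reads in the PM libraries. It made up 51.9% in PBS replicate 3 (Wilson 95% interval 49.7 to 54.1%) but 9.33% in PBS replicate 1 (8.03 to 10.8%), where Chia1 took 53.8%. These intervals cover counting error only. The share of Chia1 was 32.3% in PBS replicate 3 and 22.8%, 18.8% and 28.3% in PM. The share of Chil1 was 35.9% and 15.5% in PBS and 25.2%, 25.2% and 23.2% in PM.

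**Figure D3:**
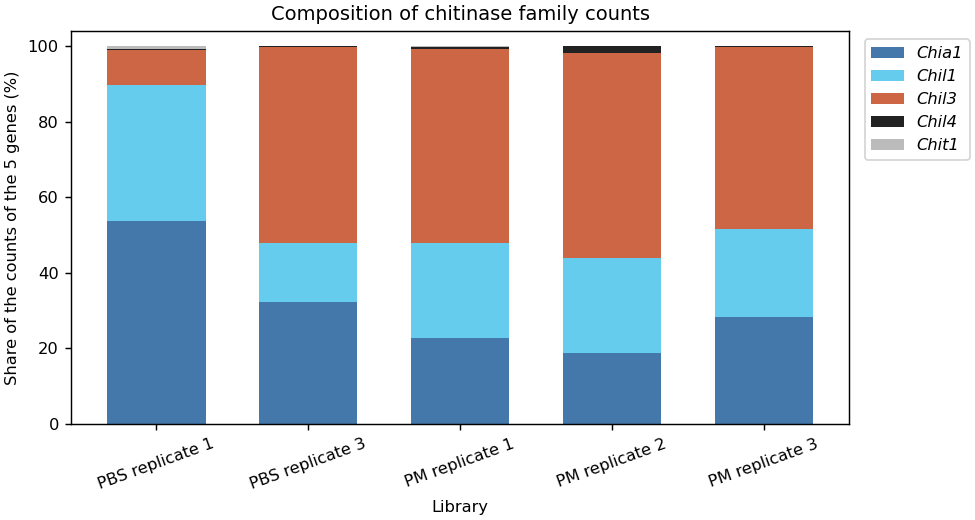
Share of the 5 members' summed reads taken by each member in each library (percent). Chil3 takes 48.2 to 54.3% in the PM libraries and 51.9% in PBS replicate 3, against 9.33% in PBS replicate 1, where Chia1 takes 53.8%.

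Ratios within a library do not depend on the scaling between libraries. There was 1.5 and 2.08 times as much Chia1 as Chil1 in PBS, by counts, and 0.903, 0.745 and 1.22 times as much in PM, so the PM ratios all lay below the PBS ratios. The ratio of Chia1 to Chil3 was 5.77 and 0.623 in PBS and 0.445, 0.346 and 0.588 in PM, again lower in all PM libraries, though PBS replicate 3 lay close to PM replicate 3. The ratio of Chil1 to Chil3 was almost constant in PM, at 0.493, 0.464 and 0.482, while in PBS it was 3.85 and 0.300. The ratio of Chil3 to Chil4 was 39.2 and 171 in PBS and 72.2, 31.9 and 239 in PM, with full overlap. Among the 6 pairs of tested members, the exact two-sided permutation test cannot go below p = 0.2 with 2 against 3 libraries, and the lowest Benjamini-Hochberg value was 0.60, so no ratio could be called different.

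Reads of Chil3 and Chil4 can be hard to tell apart. Their coding sequences were identical at 1139 of 1194 aligned bases (95.4%), while the other 9 pairs of members were 63.2 to 77.0% identical. Of the 1490 windows of 50 bases in the Chil4 transcript, 275 (18.5%) occur unchanged in Chil3, and of the 1440 windows of 100 bases 54 (3.75%) do. No other pair of members shares any window of either length. The part of the coding sequence where the pair differs most is shown here because reads over it can be assigned: coding bases 500 to 559, in exon 6 of both genes on GRCm38, with the 10 differing bases in capitals.
Chil3 (chr3:106155714-106155773, minus strand): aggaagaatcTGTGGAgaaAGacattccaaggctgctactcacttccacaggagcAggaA
Chil4 (chr3:106206041-106206100, minus strand): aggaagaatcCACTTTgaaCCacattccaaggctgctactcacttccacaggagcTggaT
How shared reads were assigned is not given in the sources used here, so the Chil4 counts may hold some Chil3 reads. The ratio of Chil3 to Chil4 ranged from 31.9 to 239 across libraries and did not follow the group. With the reads of both genes summed, the log2 difference was 3.26 with an edgeR adjusted p of 0.399, close to that of Chil3 alone.

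Chia1, Chil3 and Chil4 lie beside each other on chromosome 3, and Chit1 and Chil1 on chromosome 1. On GRCm38, Chia1 occupies chr3:106113382-106132118, Chil3 chr3:106147554-106167564 and Chil4 chr3:106201491-106219479, Chia1 on the plus strand and the other two on the minus strand. Chit1 occupies chr1:134111242-134151541 and Chil1 chr1:134182156-134190031. The promoters of the chromosome 3 genes are shown because these neighbours had higher levels in every PM library. Printed are 200 bases of each RefSeq promoter (GRCm38.p6), with TATAAA and TTCNNNGAA matches in capitals.
Chia1 (chr3:106113164-106113363, plus strand): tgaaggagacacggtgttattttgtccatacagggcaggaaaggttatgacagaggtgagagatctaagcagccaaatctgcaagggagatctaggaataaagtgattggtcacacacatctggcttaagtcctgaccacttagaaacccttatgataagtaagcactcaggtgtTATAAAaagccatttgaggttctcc
Chil3 (chr3:106167543-106167742, minus strand): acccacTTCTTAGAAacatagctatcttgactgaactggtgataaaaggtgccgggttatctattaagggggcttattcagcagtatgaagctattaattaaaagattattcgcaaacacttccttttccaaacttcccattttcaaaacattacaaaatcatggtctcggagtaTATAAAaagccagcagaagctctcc
Chil4 (chr3:106219486-106219685, minus strand): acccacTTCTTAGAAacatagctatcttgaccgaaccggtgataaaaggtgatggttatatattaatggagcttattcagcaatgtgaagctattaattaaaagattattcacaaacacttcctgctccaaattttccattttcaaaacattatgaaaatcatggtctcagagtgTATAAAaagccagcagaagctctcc
Counted with the annotated start as 0, TATAAA begins at -43 in Chia1, -3 in Chil3 and -31 in Chil4. It is present on either strand in 13.6% of the 32851 promoters of the same 300-base length, 250 before to 50 after the start. The Chil3 and Chil4 stretches were identical at 182 of 199 aligned bases (91.5%), against 62.2% for Chia1 and Chil3 and 64.9% for Chia1 and Chil4. TTCNNNGAA, a spacing bound by several STAT factors, occurs at -172 in Chil3 and -200 in Chil4, both times as TTCTTAGAA, and in 8.30% of all promoters. TTCNNNNGAA, the spacing preferred by STAT6, is in none of the 5 members' windows and in 6.95% of all promoters. TTGCNNAA, read as a C/EBP motif, is found in Chil4 alone, on the reverse strand at -131, and in 10.8% of promoters. GAGGAAGT, a PU.1 motif, is in none of the members and in 3.20% of promoters. The windows of Chil1 and Chit1 hold none of the 5 motifs on either strand. These matches describe the letters only and say nothing of binding.

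The genes around the members were read in the same way. Of the 20 nearest annotated genes, 10 on each chromosome, 19 were in the tables and 15 could be tested, and edgeR called 0 in either direction. At an unadjusted p below 0.05 there were 0 higher and 1 lower, DESeq2 called 0 higher and Prelp lower, and limma-voom called none. The median log2 difference of the 15 was 0.05, against 0.01 over all genes tested. It ranged from -0.60 for Prelp, a matrix proteoglycan (edgeR adjusted p = 0.0565), to 0.79 for Pifo, a gene of ciliated cells (0.492). In 2 of the 15 every PM library lay above every PBS library, and in 5 every PM library lay below. Over all genes tested these shares were 15.5% and 16.1%.

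**Figure D4:**
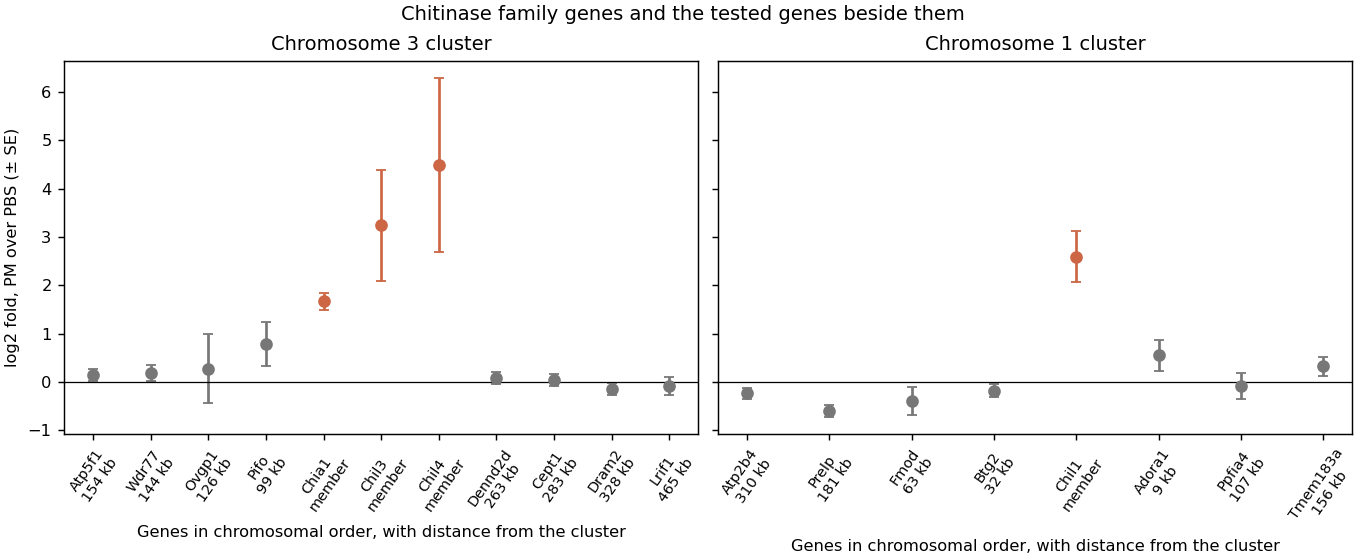
Log2 difference between PM and PBS lungs (vertical axis, bars are ± SE) for the tested members (orange) and the tested genes around them (grey), in chromosomal order with each gene's distance from the cluster, chromosome 3 at left and chromosome 1 at right. The neighbours lie between -0.60 and 0.79, while Chia1 lies at 1.67, Chil1 at 2.59, Chil3 at 3.24 and Chil4 at 4.49.

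None of the remaining family genes that could be tested was called. Ctbs, a lysosomal chitobiase, had a log2 difference of -0.13, Chid1, a secreted chitinase-domain protein, of 0.17, and Ovgp1, the oviduct glycoprotein, of 0.28. edgeR, DESeq2 and limma-voom called 0 of the 3, and 0 had an unadjusted p below 0.05. Chil6 had 2 counts in PM replicate 1 and 0 in the other 4 libraries. Chil5 was not analysed here.

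Among receptors and binding partners of the family, Lgals3 and Cd44 rose. They were the 2 that edgeR called of 9 tested, with 0 called lower and a median log2 difference of 0.54 against 0.01 over all genes. DESeq2 called 2 higher and 1 lower, limma-voom 2 higher and 0 lower, and at an unadjusted p below 0.05 there were 3 higher and 1 lower. Over all genes, edgeR called 0.142% higher, DESeq2 1.83% higher and 0.783% lower, and limma-voom 0.0854% higher. At an unadjusted edgeR p below 0.05, 7.26% of all genes were higher and 6.05% lower. Galectin-3 (Lgals3), a lectin of activated macrophages reported to bind the human Chil1 protein, stood at 121 and 118 CPM in PBS and 210, 248 and 188 CPM in PM. It rose by 0.85 ± 0.13 on the log2 scale (SE, edgeR adjusted p = 0.0379). CD44, a hyaluronan receptor and coreceptor in Chil1 signalling, stood at 137 and 152 CPM in PBS and at 229, 259 and 236 CPM in PM. It rose by 0.74 ± 0.12 (SE, edgeR adjusted p = 0.0379). In both genes all PM libraries lay above the PBS libraries. Il13ra2, the reported Chil1 receptor, had only 2 counts, all in PM replicate 2. Its partner Tmem219 had a log2 difference of -0.07 ± 0.22 (SE, edgeR adjusted p = 0.928), and Ager, another reported receptor and a marker of alveolar type 1 cells, of -0.41 ± 0.11 (SE, edgeR adjusted p = 0.147). Every PM library lay below both PBS libraries for Ager, and it was the gene that DESeq2 called lower. Il13ra2 and Tmem219 were singled out after their values were seen.

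IL-4 and IL-13, acting through IL-4 receptor alpha and STAT6, are the best known inducers of Chia1, Chil3 and Chil4, so this pathway was read beside them. Several of the cytokines were at or near 0. Il4 had 0 and 2 counts in PBS and 1, 0 and 0 in PM. Il5 had 2 counts in PM replicate 1 alone, Il13 had 1 count in PM replicate 2 alone, and Il9 and Il25 had none. The epithelial alarmin Il33 was well detected, at 30.9 and 43.3 CPM in PBS and at 62.1, 103 and 61.2 CPM in PM, with every PM library above both PBS libraries. Its log2 difference was 1.02 ± 0.28 (SE, edgeR adjusted p = 0.179). Its receptor gene Il1rl1 stood at 2.67 and 1.85 CPM in PBS and at 9.82, 8.74 and 6.56 CPM in PM, again without overlap, with a log2 difference of 1.88 ± 0.38 (SE, edgeR adjusted p = 0.0592). Tslp, another alarmin, stood at 5.10 and 5.06 CPM in PBS and at 3.62, 6.59 and 5.30 CPM in PM, with overlap. Il33, Il1rl1 and Tslp were singled out after their values were seen. Of the 12 tested genes among cytokines, receptors, kinases and STAT6, edgeR and limma-voom called 0, DESeq2 called Il33 and Il1rl1 higher, and at an unadjusted p below 0.05 there were 4 higher and 1 lower. Their median log2 difference was 0.03. Over all genes, DESeq2 called 1.83% higher. At an unadjusted edgeR p below 0.05, 7.26% of all genes were higher and 6.05% lower. Stat6 stood at 66.3 and 72.9 CPM in PBS and at 71.3, 61.8 and 55.1 CPM in PM, with overlap. Il4ra had a log2 difference of -0.34 ± 0.12 (SE, edgeR adjusted p = 0.236) and Jak1 of -0.14 ± 0.12 (0.673).

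Genes known to be induced by IL-4 and IL-13 had a median log2 difference of 2.35 over 17 tested genes, against 0.01 over all genes, but 7 of the 17 had under 10 counts in a PBS library and entered mainly through PM reads. edgeR called 1 higher and 0 lower, limma-voom none, DESeq2 9 higher and 0 lower, and in 12 of the 17 every PM library lay above every PBS library. Over all genes, DESeq2 called 1.83% higher, and 15.5% had every PM library above every PBS library. Entry through PM reads raises the count for this list. Ccl17, a chemokine that draws CCR4-bearing T cells, stood at 4.17 and 7.16 CPM in PBS and at 18.3, 17.2 and 17.7 CPM in PM. It rose by 1.65 ± 0.27 on the log2 scale (SE, edgeR adjusted p = 0.0379). Retnla, which encodes the secreted protein Fizz1 and is often read together with Chil3, stood at 34.1 and 13.5 CPM in PBS and at 1016, 5323 and 1222 CPM in PM. The PM values of Retnla lay far above the PBS values and PM replicate 2 was again highest, but the spread left its edgeR adjusted p at 0.247. Tgm2, a transglutaminase, had a log2 difference of -0.35 ± 0.12 (SE, edgeR adjusted p = 0.209), the opposite sign.

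Chil3 and Chil4 are also made by myeloid and epithelial cells whose share of the lung can change, so markers of those cells were summed in each library. The 13 alveolar macrophage markers summed to 388 and 618 CPM in PBS and to 925, 731 and 802 CPM in PM, with 6 of 13 higher in every PM library and a median log2 difference of 0.89. edgeR and limma-voom called 0 of the 13, DESeq2 called 3 higher, and 4 had an unadjusted p below 0.05, all higher. Over all genes, 15.5% were higher in every PM library and DESeq2 called 1.83% higher. A further 7.26% is the share of all genes with an unadjusted edgeR p below 0.05 and a higher level. These shares are the reference for the lists below too. The 10 interstitial macrophage and monocyte markers summed to 470 and 583 CPM in PBS and to 591, 774 and 845 CPM in PM, with a median of 1.33. In 7 of the 10 every PM library lay above every PBS library. DESeq2 called 4 higher, and 5 had an unadjusted p below 0.05, all higher. Among the 10, Ccr2, the chemokine receptor of inflammatory monocytes, rose by 1.28 ± 0.16 (SE, edgeR adjusted p = 0.0142). Among 10 genes of activated and lipid-laden macrophages, with a median of 0.72, edgeR called Ctsk alone. limma-voom called 1 higher and DESeq2 6, and 7 had an unadjusted p below 0.05, all higher. In 7 of the 10 every PM library lay above every PBS library, and in 1 every PM library lay below. Ctsk, a lysosomal protease, rose by 1.88 ± 0.23 (SE, edgeR adjusted p = 0.0140), from 16.8 and 10.002 CPM to 44.2, 56.6 and 47.8 CPM. Both macrophage sums were higher in every PM library than in either PBS library. For the interstitial and monocyte sum the gap was narrow, 591 CPM in PM replicate 1 against 583 CPM in PBS replicate 3. Lyve1 supplied 239 and 425 CPM of these, and its log2 difference was 0.006 ± 0.57 (SE). Car4 supplied 225 of the 388 CPM of the alveolar sum in PBS replicate 1, and its log2 difference was 0.09 ± 0.15 (SE). The sums are therefore not read here as macrophage content. The part of macrophages in the members' differences was not tested.

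Granulocyte markers gave a mixed picture. The neutrophil markers summed to 286 and 141 CPM in PBS and to 297, 238 and 977 CPM in PM, with overlap between the groups. The highest sum was in PM replicate 3, which had the lowest Chil1, Chil3 and Chil4 of the PM libraries. In that library S100a8 and S100a9 supplied 342 and 460 CPM of the sum. Not every marker followed this order: Retnlg was highest in PM replicate 2, at 35.8, 84.6 and 58.1 CPM in PM. Of 8 tested, edgeR and limma-voom called 0, DESeq2 called 3 higher, and 3 had an unadjusted p below 0.05, all higher. The eosinophil markers summed to 14.5 and 29.9 CPM in PBS and to 64.2, 59.0 and 37.6 CPM in PM, without overlap. Most of each sum was Ear6, at 10.8 and 21.1 CPM in PBS and at 44.4, 41.6 and 26.6 CPM in PM. Siglecf, at 2.67 and 8.15 CPM in PBS and 11.6, 5.59 and 7.44 CPM in PM, is on the alveolar macrophage list too. The sum therefore does not mark eosinophils alone. The defining granule genes Epx and Prg2 were at or near 0, with at most 3 and 6 counts in a library. Of 4 tested, 2 of them with under 10 counts in a PBS library, edgeR and limma-voom called 0, DESeq2 called 2 higher, and 3 had an unadjusted p below 0.05, all higher.

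Mucous cell genes of the airway were near the detection limit in PBS. Of the 8 tested, 7 had under 10 counts in at least 1 PBS library and so owed their place among the tested genes mainly to PM reads, which makes their median log2 difference of 4.84 a description only. The list summed to 7.18 and 7.29 CPM in PBS and to 532, 2177 and 133 CPM in PM. The order of the PM libraries, replicate 2 highest and replicate 3 lowest, was the order seen for Chil1, Chil3 and Chil4. With only 3 PM libraries such a match carries little weight, and how many of all genes share this order was not counted. Clca1, a secreted goblet cell protein, had 0 counts in both PBS libraries and 288, 1161 and 33.9 CPM in PM. Itln1, an intelectin that binds microbial sugars, stood at 0.464 and 0.741 CPM in PBS and at 139, 700 and 48.7 CPM in PM. Muc5b, an airway mucin, stood at 4.40 and 2.22 CPM in PBS and at 39.4, 102 and 18.5 CPM in PM. edgeR and limma-voom called 0 of the 8, DESeq2 called 6 higher, and 6 had an unadjusted p below 0.05, all higher. The median stays at 4.84 with Clca1 placed at its lower bound. The part of mucous cells in the members' differences was not tested.

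None of the other epithelial genes was called by edgeR. Club cell markers, with a median log2 difference of 0.11, summed to 28598 and 30685 CPM in PBS and to 24569, 31372 and 43737 CPM in PM. Alveolar type 2 markers, with a median of 0.08, summed to 23607 and 19363 CPM in PBS and to 24978, 21696 and 23793 CPM in PM. Their most abundant gene, Sftpc, had a log2 difference of 0.08 ± 0.16 (SE, edgeR adjusted p = 0.883). Ciliated cell markers had a median of 0.76 and summed to 385 and 362 CPM in PBS and to 385, 505 and 511 CPM in PM. edgeR and limma-voom called 0 of the 9 club cell, 9 alveolar type 2 and 8 ciliated cell genes. DESeq2 called 1, 1 and 3 of them higher, and 2, 2 and 5 had an unadjusted p below 0.05, all higher. Chia1 is also strongly expressed in mouse stomach and salivary glands. The gastric markers summed to 0.988 to 2.65 CPM, with Gkn1, Gkn2 and Atp4b at 0 in every library and 0 genes with enough reads to test. Aqp5 and Bhlha15, the 2 salivary and lacrimal markers with enough reads, had a median log2 difference of -0.65. edgeR, DESeq2 and limma-voom called 0 of them, and 1 had an unadjusted p below 0.05, with a lower level in PM. Of the rest, Prol1, Smr3a, Prb1 and Dcpp1 were at 0 in every library. Aqp5 gave nearly all reads of the list, at 80.1 and 58.9 CPM in PBS and at 54.2, 60.6 and 46.9 CPM in PM, with overlap. The cells behind the Aqp5 reads were not identified. Lung epithelial genes were abundant in all 5 libraries, as the tissue label says.

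The genes whose profile was most like each tested member were found by the smallest root mean square difference of centred log2(CPM + 0.5) over the 5 libraries, among 13161 named genes. For Chia1 these were Uhrf1, a factor that maintains DNA methylation in dividing cells (0.13), Anxa8, an annexin (0.15), and Ctsk (0.15). For Chil1 they were Orm2 and Lcn2 (0.25 and 0.26), which encode acute-phase lipocalins, and Tmc5 (0.27), a membrane protein gene. Lcn2 stood at 59.7 and 45.1 CPM in PBS and at 207, 354 and 193 CPM in PM. Chil3 had looser matches, Rnase2a (0.55), an eosinophil-associated ribonuclease, and the eotaxin Ccl11 (0.77) and the monocyte chemokine Ccl8 (0.83). For Chil4 they were Fcgbp (0.25), a mucus protein, Speer4d (0.38) and H2-M2 (0.44). Fcgbp stood at 1.85 and 1.98 CPM in PBS and at 28.4, 93.3 and 5.42 CPM in PM, with PM replicate 2 highest and PM replicate 3 lowest, as for Chil4. Among the members themselves, Chia1 and Chil1 were the closest pair, at 0.52, and Chia1 and Chil3 the farthest, at 1.45. Anxa8, Ctsk, Lcn2 and Fcgbp stood higher in both PBS libraries than the other matches, which were near the detection limit in PBS. Rnase2a, for example, stood at 0 and 0.617 CPM in PBS, Tmc5 at 0.232 and 0.123, and Speer4d at 0 and 0.123. At such levels the added 0.5 CPM shapes the distance. The distances describe 5 libraries that share their groups, and no test was made of them.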

How the data were processed

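RNA from mouse lung was extracted with easy-BLUE and made into SENSE mRNA-Seq (Lexogen) libraries, per the labels' protocols. TopHat, Cufflinks and mm10 are named in the submitters' processing notes. No version or role of these tools, and no counting program, annotation, strand setting or treatment of multiply mapped reads, is stated by the labels. The authors deposited a raw read count per gene and sample. All 23282 entries of the PBS replicate 2 table equal those of replicate 1, whose name its header carries, so the pair was counted once. Without strand information, reads of overlapping genes cannot be told apart. Of the 79 entries that share a symbol, 44 were set aside (0.0246% of counts), and 1 blank entry was left out.

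Groups were compared with edgeR 4.0.16 in R 4.3.3 (filterByExpr, TMM scaling, robust quasi-likelihood test, two-sided), limma 3.58.1 (voom) and DESeq2 1.42.0, with Benjamini-Hochberg adjustment over all genes tested and a threshold of 0.05. The standard error is the log2 difference divided by the square root of F. The procedure was tested on simulated data. The main fit did not pair samples by replicate number. Levels are TMM-scaled CPM, computed from the deposited counts. Transcript lengths and coding sequences are from GENCODE M21, used in place of the planned RefSeq lengths, which span whole genes. Gene positions and promoters are from RefSeq GRCm38.p6, the same build as mm10, and all 5 members matched by symbol. Promoter letters were searched on both strands.

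Members and gene lists were chosen with earlier results of these data known. Genes named are the members, the remaining family genes, and, of each list, every called gene and the 3 with the highest mean level, together with the 3 closest profiles per member. A single result under this rule is not reported here. Genes at or near 0, the extremes of the neighbouring genes and Fabp4 were named after their values were seen.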

Additional observations from a re-analysis of the deposited data

How the results depend on the processing

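With 2 PBS libraries, a single one can decide a call. For each tested member every PM library lay above every PBS library, so leaving out a library could not turn the sign of the log2 difference. The alternatives for Chil3 and Chil4 include the summed reads of both genes, which give both the same value. The log2 difference was positive in every alternative, which is therefore no added support: 15 for Chia1 and Chil1 each and 16 for Chil3 and Chil4 each. The threshold was passed in 13, 5, 1 and 2 of them, with edgeR, DESeq2 or limma adjusted p-values of 2.65e-17 to 0.0741, 2.24e-07 to 0.53, 0.0465 to 0.673 and 0.0256 to 0.868. Leaving out single libraries gave 1.48 to 1.89 for Chia1, whose call was lost without either PBS library. Chil1 passed with scaling by total counts only (2.54), with DESeq2 (2.60), without robust estimation (2.59), with all 6 tables, which counts the copied library as a replicate (2.46), and with a replicate block (2.28). DESeq2 also called Chil3 (3.24) and Chil4 (4.53), and the replicate block called Chil4 (2.90). The block rests on replicates 1 and 3 alone. Their deviations from the group means correlated at -0.03 and 0.07. With 2 PBS libraries the PBS deviations mirror each other, so these values cannot tell whether samples of the same number shared a batch. Chit1 was tested only without the filter on low counts.

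The number of genes called was 32 (20 higher, 12 lower). It was 51 with total counts only, 275 with no filter, 370 with DESeq2, 635 with all 6 tables and 353 with the replicate block. Leaving out single libraries gave 1 to 427, with 1 without PBS replicate 1, 6 without PBS replicate 3, 12 without PM replicate 1, 106 without PM replicate 2 and 427 without PM replicate 3. The cause of these shifts was not tested, except that a copied library lowers the spread by construction. Depth limits Chit1, the PBS level of Chil4 and the type 2 cytokines.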

Other observations

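The longest run of bases shared by the promoters of Chia1, Chil3 and Chil4 was TATAAAAAGCCA, of 12 bases, which includes the TATA box. Searched on the given strand after the sequences had been seen, it occurred in 6 of the 32851 promoters (0.0183%): those of Chia1, Chil3 and Chil4, those of Sprr1a and Sprr1b, which encode small proline-rich proteins of squamous epithelium, and that of Mstn, the gene of the muscle growth inhibitor myostatin.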
